A study of Mus musculus with 4 samples.

Results

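Olfactory receptors are G protein-coupled receptors in the cilia of olfactory receptor neurons, the sensory cells of the olfactory epithelium. The genes numbered *Olfr90* to *Olfr137* were chosen by that number, with earlier results of these data known. They were taken from probes whose accession maps to such a symbol in RefSeq genes listed for GRCm38.p6. That table lists 48 of these genes, all on chromosome 17, and 45 of them were measured, each by 1 probe, of 1080 *Olfr* genes and 45604 genes tested in all. The other 3 (*Olfr104-ps*, *Olfr105-ps* and *Olfr106-ps*) are pseudogenes with no probe matched here. The arrays held RNA of the nasal mucosa of male C57BL/6 mice, named olfactory epithelium in the sample titles. There were 2 arrays of young adult mice, 8 weeks of age, and 2 of aged mice, 16 months of age. Each array was hybridized with RNA pooled from 5 mice, so the spread between arrays is that between pools and not between animals. The sample titles name no treatment, while a description among the labels names silica aspiration and lung, at odds with titles and tissue, and was set aside. Whether the pools of one age share mice is not stated in the sources used here. The methods count fewer mice for gene work than separate pools would take, so pools may share mice, and each standard error, P and FDR below measures the spread between these arrays only. The question asked of these receptors was whether their RNA differed between the ages, and how they compared with the other 1035 *Olfr* genes.

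Each mature olfactory receptor neuron transcribes a single allele of a single receptor gene out of the whole family, and sends its axon to glomeruli that collect the neurons of the same receptor. The level of a receptor in RNA of a whole mucosa therefore depends on how many neurons chose it and on how much RNA each of them holds, and these measurements of bulk tissue cannot tell fewer cells of a type from less RNA per cell. An odorant that binds the receptor activates the G protein Golf, adenylyl cyclase and a cyclic nucleotide-gated channel, and the receptor numbers used here lie in a cluster beside the extended major histocompatibility complex.

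All spot values are normalized intensities, on a linear scale when called a level and on the log2 scale when called a fold change, with aged over young adult as the direction. The scanner software marked 21 and 35 of the 45 receptors as well above background in the young adult pools, and 19 and 31 in the aged pools. Among the other *Olfr* genes the share was 50 and 72.4% in the young adult pools and 42.9 and 68.0% in the aged pools. Over all 4 arrays, 18 receptors were well above background on every array, 3 on 3 arrays, 11 on 2 arrays, 3 on 1 array and 10 on no array. The first array of each age shared a slide, with median local backgrounds of 67 (young adult) and 63 (aged), while the second arrays were on separate slides, with 32 and 39. Of the 11 receptors seen on 2 arrays, all 11 were well above background on young adult array 2, 10 on aged array 2, 1 on aged array 1 and 0 on young adult array 1. Dim receptors were thus detected mostly on the arrays off the shared slide, in both ages. Whether a probe also binds RNA of a closely related receptor was not tested.

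**Figure D1:**
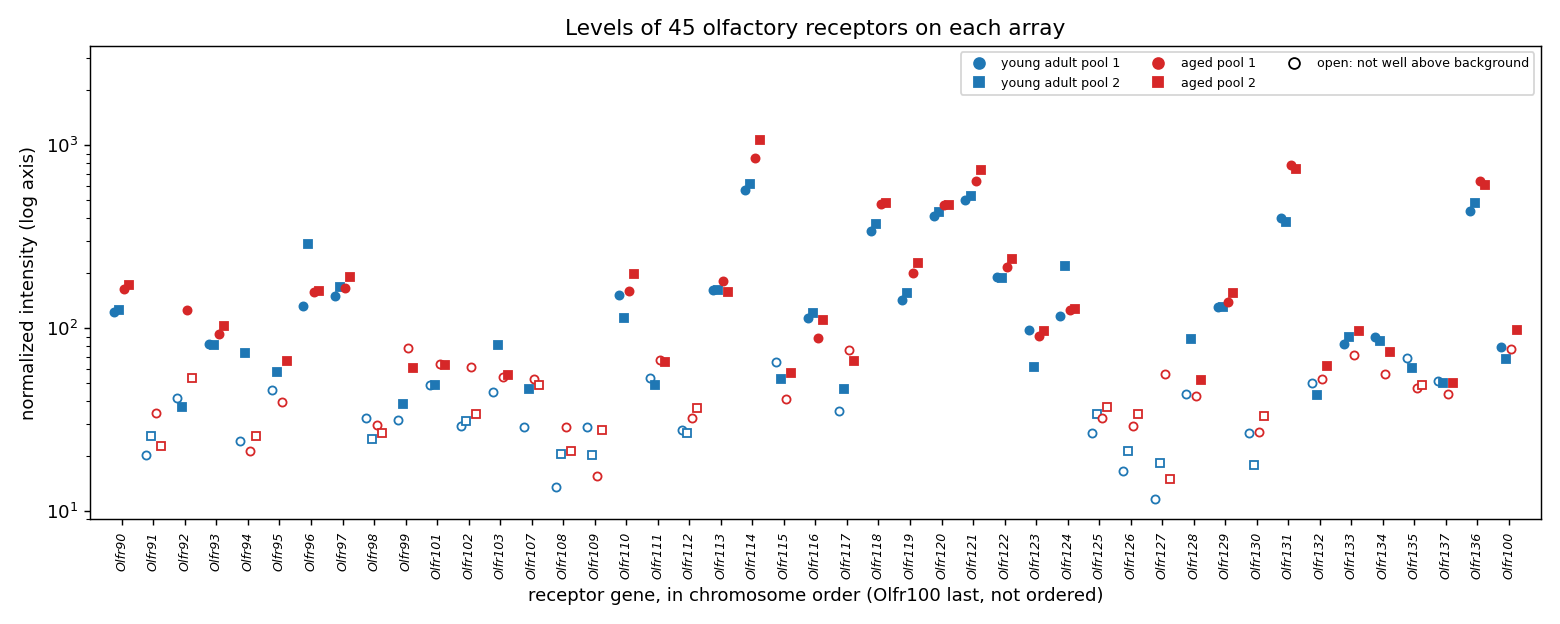
Normalized intensity (log axis) of the 45 receptors on the 4 arrays, 44 in chromosome order and *Olfr100* last, because its listed position is far from the others, with circles for replicate 1 and squares for replicate 2 of each age, young adult in blue and aged in red. Open symbols were not well above background, and the aged symbols of *Olfr131* (777 and 742) lie above both young adult symbols (400 and 383).

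Most of the receptors had a higher level in aged mice, but few passed the test. A gene was called when limma gave a P below 0.05 together with an FDR, adjusted over all 45604 genes by Benjamini and Hochberg's method, below 0.25. By this rule 2 of the 45 receptors (4.44%) were higher in aged mice, *Olfr131* and *Olfr90*, beside 1.65% of all genes and 116 (11.2%) of the other *Olfr* genes. None of the 45 receptors was called lower by limma, beside 2.33% of all genes and 40 (3.86%) of the other *Olfr* genes. With a mean level of at least 100 and a fold change of at least 1.5 required as well, only *Olfr131* was left among the receptors (2.22%), beside 0.814% of all genes and 72 (6.96%) of the other *Olfr* genes, and 0 receptors were left on the lower side, beside 1.15% of all genes and 20 of the other *Olfr* genes. The share of receptors called higher was thus above that of all genes and, in this setting, below that of the other *Olfr* genes. Of 17 alternatives with a test, it was above that of the other *Olfr* genes in 6 and below in 6, and in 5 no gene was called, so the order of these shares depends on the processing. For so few arrays the smallest two-sided P of an exact permutation test is 0.333. Each call thus depends on the model of the spread in limma, and not on the order of the arrays alone. Leaving out any 1 of the 4 arrays left 0 receptors called higher and 0 genes called of all tested. Across the other settings with a test the count ran from 0 to 11, the last without background correction (24.4% of the receptors), where 3.92% of all genes and 16.2% of the other *Olfr* genes were called higher as well.

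*Olfr131* was the clearest difference among the receptors. Its level was 400 and 383 in the young adult pools and 777 and 742 in the aged pools. Both aged pools lay above both young adult pools, with no overlap and with little spread inside either age. The mean level was 391 ± 12.4 for young adult and 760 ± 24.8 for aged mice (SD, n = 2 pools each), a 1.94-fold difference. The log2 fold change was 0.96 with a standard error of 0.08, a 95% interval from 0.71 to 1.20 and FDR = 0.178 by limma. The difference was 0.96 between the 2 arrays of one slide and 0.96 between the remaining 2 arrays. With the replicate number as a block the fold change was the same and the FDR was 0.433, where 0 genes of all tested were called. With 1 array left out the fold change was 0.92 to 0.99 and the FDR was above 0.25 in each of the 4 cases, again with 0 genes called of all tested.

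*Olfr90*, at the other end of the cluster, was named after its values were seen, as the second receptor called. Its level was 123 and 127 in the young adult pools and 164 and 173 in the aged pools. The ages did not overlap, and the aged pools differed more from the young adult pools than the pools of one age from each other. The log2 fold change was 0.43 with a standard error of 0.08 and FDR = 0.248, just inside the threshold. It was 0.42 within the shared slide and 0.45 between the other arrays. Scaling the arrays to the 75th percentile gave a log2 fold change of 0.44 and an FDR of 0.255, which ended the call. The processed signal scaled that way (0.54, FDR = 0.296) and the replicate number as a block (0.43, FDR = 0.433) ended it as well. With 1 array left out the log2 fold change was 0.39 to 0.48.

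The genes beside *Olfr131* on the chromosome are *Olfr130* and *Olfr132*, which carry MOR256 names like it. The level of *Olfr130* was 26.9 and 18.0 in the young adult pools and 27.0 and 33.2 in the aged pools, and it was not well above background on any array. The level of *Olfr132* was 50.4 and 43.1 in the young adult pools and 52.8 and 62.0 in the aged pools. Neither was called, and no fold is given for *Olfr130*. For *Olfr132* both aged pools lay above both young adult pools, by little, and the log2 fold change was 0.30 (FDR = 0.508). *Olfr132* was well above background on neither array of the shared slide. Between the other arrays, on which it was, the difference was 0.53. Whether either neighbour differs from *Olfr131* in its response to age was not tested.

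The bases before the annotated start were examined for the receptors, because most of their values lay on one side. A promoter window of 250 bases from RefSeq (GRCm38.p6) was at hand for 35 of the 45 receptors. The start annotated was the start codon itself in 22 of these 35 windows (62.9%), beside 73% of those of the other *Olfr* genes and 6.75% of all 27025 promoters, so that for these genes the window need not lie at the start of transcription. The windows of the 2 called receptors are shown with any match to the palindromic Ebf motif (TCCC and GGGA with any 2 bases between them), TAATTA or TAATGA (both of the kind that homeodomain proteins such as Lhx2 and Emx2 bind), on either strand, in capitals. The window of *Olfr131* lies at chr17:38082977-38083226 on the minus strand and held 1 match, to TAATGA. The window of *Olfr90* at chr17:37086237-37086486 on the minus strand held 0 matches.
Olfr131: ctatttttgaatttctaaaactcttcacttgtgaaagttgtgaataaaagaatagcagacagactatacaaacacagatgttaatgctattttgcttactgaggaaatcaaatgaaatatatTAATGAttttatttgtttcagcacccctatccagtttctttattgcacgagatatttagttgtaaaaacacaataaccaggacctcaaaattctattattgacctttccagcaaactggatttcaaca
Olfr90: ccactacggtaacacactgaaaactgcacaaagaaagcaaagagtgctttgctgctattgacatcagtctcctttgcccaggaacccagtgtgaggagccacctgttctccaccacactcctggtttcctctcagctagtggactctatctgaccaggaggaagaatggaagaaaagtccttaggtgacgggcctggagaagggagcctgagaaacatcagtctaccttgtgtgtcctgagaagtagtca

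TAATGA was in the window of 8 of 35 receptors (22.9%), in 25.2% of those of the other *Olfr* genes and in 8.77% of all promoters. TAATTA was in 4 of 35 receptors (11.4%), in 18.4% of the other *Olfr* genes and in 4.90% of all promoters. The Ebf motif was in 3 of 35 receptors (8.57%), *Olfr98*, *Olfr99* and *Olfr108*, in 1 of 909 other *Olfr* genes (0.11%) and in 0.788% of all promoters. These 3 receptors carry MOR156 names, and their windows are shown because they are 3 of the 4 with this motif among the *Olfr* genes. The 3 windows are alike over long stretches around the match, including the TAATGA beside it. Their matches are thus not independent of each other, and the same 3 receptors are among the 8 with TAATGA. The windows lie at chr17:37263663-37263912 on the minus strand, at chr17:37280419-37280668 on the minus strand and at chr17:37445230-37445479 on the plus strand, in this order. The match began 183, 188 and 108 bases before the annotated start, which was the start codon for *Olfr98* and *Olfr99* but not for *Olfr108*. Capitals mark the matches to any of the 3 motifs.
Olfr98: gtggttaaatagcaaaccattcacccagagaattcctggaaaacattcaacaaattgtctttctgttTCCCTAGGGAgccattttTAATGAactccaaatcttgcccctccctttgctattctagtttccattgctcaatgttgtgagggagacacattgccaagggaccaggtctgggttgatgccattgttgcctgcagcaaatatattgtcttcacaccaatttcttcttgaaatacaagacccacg
Olfr99: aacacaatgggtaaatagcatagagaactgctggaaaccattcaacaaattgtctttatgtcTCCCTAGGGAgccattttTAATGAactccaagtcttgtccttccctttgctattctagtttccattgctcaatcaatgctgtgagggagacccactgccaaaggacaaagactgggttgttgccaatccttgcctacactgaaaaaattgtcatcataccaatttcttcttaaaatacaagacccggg
Olfr108: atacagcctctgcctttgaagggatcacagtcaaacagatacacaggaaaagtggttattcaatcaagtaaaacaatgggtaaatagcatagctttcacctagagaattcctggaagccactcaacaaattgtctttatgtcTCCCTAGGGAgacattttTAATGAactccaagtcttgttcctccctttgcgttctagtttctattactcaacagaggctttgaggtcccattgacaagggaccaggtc

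The values of these 3 receptors were unlike each other. The level of *Olfr99* was 31.3 and 38.7 in the young adult pools and 77.7 and 60.4 in the aged pools, without overlap. It was well above background on 1 array of each age, those off the shared slide, and was not called (FDR = 0.260). The level of *Olfr98* was 32.2 and 24.7 in the young adult pools and 29.6 and 26.8 in the aged pools, which overlapped. For *Olfr108* it was 13.5 and 20.6 in the young adult pools and 28.9 and 21.4 in the aged pools, and neither of the last pair was well above background on any array. A match says nothing of whether a factor binds there, and no test was made of motifs against fold changes.

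Before adjustment, 14 receptors (31.1%) had a P below 0.05 with a higher level in aged mice, beside 6.05% of all genes and 209 (20.2%) of the other *Olfr* genes. In the other direction, *Olfr135* alone had a P below 0.05 (2.22% of the receptors), beside 7.08% of all genes and 98 (9.47%) of the other *Olfr* genes. Both aged arrays lay above both young adult arrays for 24 receptors (53.3%), beside 24.2% of all genes and 358 (34.6%) of the other *Olfr* genes. Both lay below for 4 receptors (8.89%), *Olfr116*, *Olfr134*, *Olfr135* and *Olfr137*, beside 21.8% of all genes and 214 (20.7%) of the other *Olfr* genes. The receptors thus had more one-sided rises and fewer one-sided falls than either comparison set, as a description of these 4 arrays. Among the rises, *Olfr102*, *Olfr108*, *Olfr112*, *Olfr126* and *Olfr130* were well above background on no array, and *Olfr112* and *Olfr126* are also among the 14. The 4 falls were each well above background on some array. With 1 array left out the 14 became 6 to 9, and without young adult array 1 there were 6 higher and 5 lower.

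The median log2 fold change of the 45 receptors was 0.27, beside 0.10 for the other *Olfr* genes and 0.01 for all genes tested. With 1 array left out it was 0.20 to 0.34 for the receptors and 0.02 to 0.15 for the other *Olfr* genes. The receptors' middle values ran from -0.04 to 0.45 (quartiles). Of the 45, 31 (68.9%) had a value above 0, beside 57.5% of the other *Olfr* genes and 51.5% of all genes. Between the 2 arrays of one slide the median was 0.20 for the receptors, 0.06 for the other *Olfr* genes and -0.01 for all genes, and between the other arrays 0.26, 0.11 and 0.02. The median deviation of the receptors from their own mean over the 4 arrays was -0.18 and -0.14 in the young adult pools and 0.07 and 0.18 in the aged pools. For the other *Olfr* genes it was -0.10 and -0.03 in the young adult pools and -0.02 and 0.10 in the aged pools. The ages did not overlap in these deviations, by little for the other *Olfr* genes. The median log2 level of the receptors, 6.02 and 6.09 in the young adult pools and 6.15 and 6.04 in the aged pools, did overlap, while that of the other *Olfr* genes, 5.98 and 6.04 in the young adult pools and 6.09 and 6.14 in the aged pools, did not. The median over the receptors stayed above 0 and above that of the other *Olfr* genes in each setting tried.

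**Figure D2:**
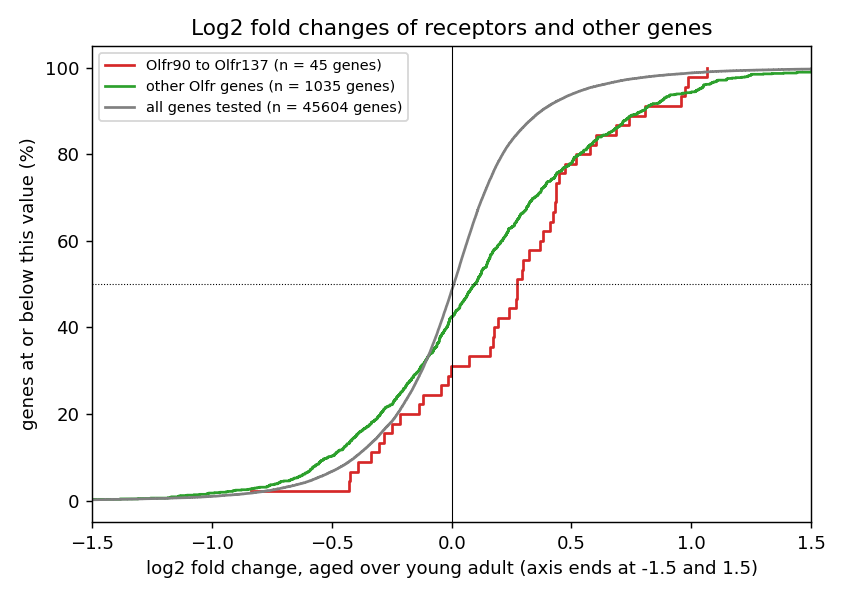
Cumulative share of genes (%) by log2 fold change, aged over young adult, for the 45 receptors, the 1035 other *Olfr* genes and all 45604 genes tested. The curve of the receptors crosses the middle line at 0.27, that of the other *Olfr* genes at 0.10 and that of all genes at 0.01.

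Among the 16 receptors with a mean level of at least 100, 13 (81.2%) had a higher value in aged mice, with a median of 0.34, beside 57.8% and 0.10 for 386 other *Olfr* genes and 53.2% and 0.01 for all such genes. Among the 29 receptors below that level, 18 (62.1%) had a higher value and the median was 0.27, beside 57.3% and 0.09 for 649 other *Olfr* genes. The brighter receptors carried the 2 calls (12.5% of them, beside 20.7% of such other *Olfr* genes and 2.13% of all such genes) and 8 of the 14 with a P below 0.05 and a higher value (50%, beside 30.8% and 7.16%).

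The receptors of the rule for named genes, other than *Olfr131* and its neighbours *Olfr130* and *Olfr132*, were *Olfr114*, *Olfr119*, *Olfr120*, *Olfr121* and *Olfr136* (by mean signal or size of a rise), *Olfr116* and *Olfr134* (the only falls that separated by age and were well above background on both arrays of an age), and *Olfr124*. *Olfr114*, which carries a MOR218 name, had levels of 568 and 617 in the young adult pools and 853 and 1065 in the aged pools. Its ages did not overlap, and its aged pools lay further apart than its young adult pools. The log2 fold change was 0.69 with a standard error of 0.15 and FDR = 0.274, outside the threshold by little.

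*Olfr118* to *Olfr122* stand side by side on the chromosome and carry MOR263 names. *Olfr121* had levels of 503 and 527 in the young adult pools and 641 and 731 in the aged pools. *Olfr119* had levels of 142 and 156 in the young adult pools and 201 and 227 in the aged pools. *Olfr120* had levels of 413 and 430 in the young adult pools and 471 and 470 in the aged pools. The aged pools were the higher in all 3, without overlap, by the least in *Olfr120*. The log2 fold changes were 0.41 for *Olfr121* (FDR = 0.309), 0.52 for *Olfr119* (FDR = 0.272) and 0.16 for *Olfr120* (FDR = 0.504), none of them called. *Olfr118* and *Olfr122* had values of 0.42 and 0.27, so that the 5 adjacent genes had values of 0.16 to 0.52.

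*Olfr136*, at the far end of the cluster, had levels of 435 and 486 in the young adult pools and 639 and 607 in the aged pools. Its ages did not overlap, and its log2 fold change was 0.44 with FDR = 0.284. The receptors just before it had values in the other direction. *Olfr134* had levels of 89.6 and 84.8 in the young adult pools and 56.5 and 74.0 in the aged pools, with a log2 fold change of -0.43 (FDR = 0.430). *Olfr135* had levels of 68.8 and 60.4 in the young adult pools and 47.0 and 49.0 in the aged pools. *Olfr135* was well above background on 1 young adult array and on no aged array, so its level in aged mice has only an upper limit. That limit takes, on each aged array, the higher of the dimmest signal well above background and the probe's own signal, here its own on both. Set against both young adult arrays it gives 1.34-fold lower in aged mice (FDR = 0.300), the same as the fitted difference. This is not a least fold, because the signal on young adult array 1 was not well above background. Between the arrays off the shared slide the log2 difference of *Olfr135* was -0.30. Its aged pools were both the lower ones, and it was not called. *Olfr116* had levels of 114 and 122 in the young adult pools and 88.7 and 111 in the aged pools, with a log2 fold change of -0.25 (FDR = 0.570), and its ages were set apart by less than the aged pools differed from each other.

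*Olfr124*, also known as MOR256-3 or SR1, is a broadly tuned receptor that many neurons of the septal organ express. Its levels were 117 and 219 in the young adult pools and 126 and 128 in the aged pools. Young adult pool 2 stood apart and both aged pools lay between the young adult pools, so the ages overlapped. The log2 fold change was -0.34 with a standard error of 0.35 and FDR = 0.729, and between the 2 arrays of one slide it was 0.11. *Olfr96*, *Olfr94*, *Olfr103* and *Olfr128* had the same shape, with young adult pool 2 above the other 3 pools, and were picked out after their values were seen. In *Olfr96* the levels were 132 and 288 in the young adult pools and 157 and 159 in the aged pools. For *Olfr94*, well above background on young adult array 2 alone, they were 24.2 and 73.5 in the young adult pools and 21.4 and 25.9 in the aged pools. By the limit defined above it was 1.48-fold lower in aged mice (FDR = 0.637 for the fitted difference). This is not a least fold either, because the young adult side was measured on 1 of 2 arrays and young adult pool 1 lay between the aged pools. Young adult pool 2 sets most of the size of these values.

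**Figure D3:**
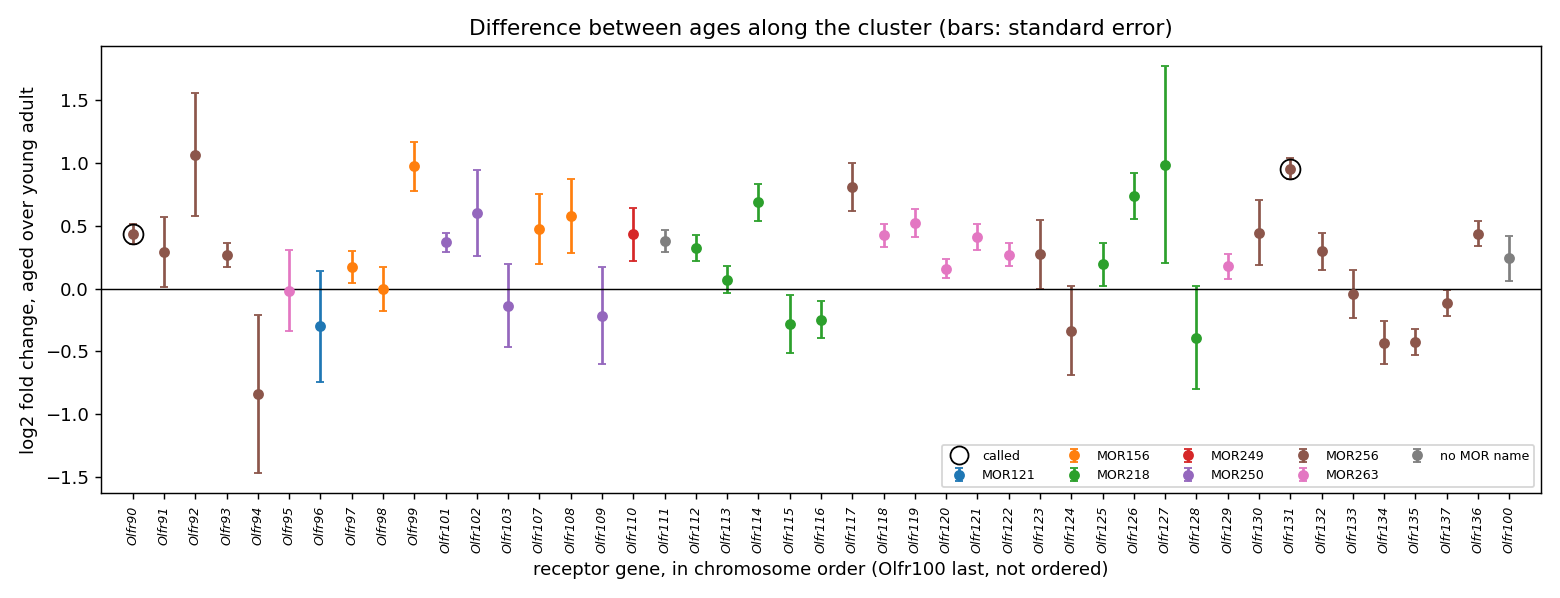
Log2 fold change, aged over young adult, with its standard error (bars) for each of the 45 receptors, 44 in chromosome order and *Olfr100* last, coloured by the MOR family of its older name, with rings round the 2 called receptors. Values lie above 0 from *Olfr117* to *Olfr123* and below 0 from *Olfr133* to *Olfr137*.

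The older MOR names group receptors by the likeness of their proteins. Of 16 receptors with MOR256 names, of which 14 were well above background on some array, 10 had a higher value in aged mice and the median was 0.28, and this group held both calls as well as *Olfr94*, *Olfr134* and *Olfr135*. Of 7 with MOR263 names, 6 had a higher value, with a median of 0.27, and *Olfr95* had -0.02. Of 9 with MOR218 names, 5 with MOR156 names and 4 with MOR250 names, 4, 2 and 2 were well above background on no array, so no family value is given for these. No difference between families was tested. *Olfr92* rested on 1 aged pool: the levels of *Olfr92* were 41.4 and 37.1 in the young adult pools and 126 and 53.2 in the aged pools.

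Genes that lie among the receptors were looked at as well. Of 26 such genes in the RefSeq table, which are no *Olfr* genes and lie between the receptors or next to them, 7 were measured, 4 of them well above background on some array (not *Esp34*, *Esp36* and *Ubd*), and 0 were called in either direction by limma, beside 1.65% of all genes called higher and 2.33% lower, so few calls were to be expected among so few genes. *Gabbr1*, a subunit of the GABA-B receptor, had 0.21 (FDR = 0.397), *H2-M3*, a nonclassical class I molecule, -0.16 (FDR = 0.490), and *Mog*, a myelin protein, -0.30 (FDR = 0.758). Of the *Olfr* genes with other numbers in the same stretch, *Olfr138* (FDR = 0.396) and *Olfr761* (FDR = 0.757), both dim, were not called.

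The genes through which the receptors signal and reach the cilia had values on the same side as most receptors. Of 19 such genes, 18 had a higher value in aged mice, the median was 0.20, and 2 were called higher and 0 lower by limma (beside 1.65 and 2.33% of all genes), a count that ran from 0 to 12 over the settings. *Stoml3*, a protein of the olfactory cilia, had levels of 30690 and 29550 in the young adult pools and 41360 and 39870 in the aged pools, with a log2 fold change of 0.43 (FDR = 0.243). *Pde4a*, a cyclic AMP phosphodiesterase, had 0.45 (FDR = 0.249). Of 20 factors that bear on which receptor a neuron transcribes, 0 were called, 14 had a higher and 6 a lower value, and the median was 0.03, from -0.35 for *Nfix* (FDR = 0.270) to 0.33 for *Ebf3* (FDR = 0.306), with 0.12 for *Atf5*, 0.04 for *Ehmt2* and 0.08 for *Lhx2*.

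All markers of mature neurons, immature neurons and basal cells were well above background on some array, and *Omp*, the olfactory marker protein, led the mature neuron list. Of the 12 mature neuron markers, 9 are also among the signalling and export genes above, *Stoml3* being counted in both. All 12 had higher values in aged mice (median 0.19), 2 of them called (*Kirrel2*, 1.11, and *Stoml3*), and their summed level was 744980 and 731550 in the young adult pools and 855540 and 850370 in the aged pools. *Omp* itself had 0.15 and was not called. The study counted fewer OMP-positive neurons in sections of aged mice, and the RNA levels given here are no count of cells. Of 10 immature neuron markers, 8 had lower values (median -0.25), with *Dpysl3* (-0.40) and *Dbn1* (-0.42) called. The other 2, *Stmn4* (0.20) and *Ncam1* (0.10), were higher in aged mice and not called. The summed level, led by *Stmn4*, was 69146 and 69024 in the young adult pools and 66482 and 67450 in the aged pools. Of 10 basal and progenitor markers, led by *Krt5*, 8 had lower values (median -0.40), 4 of them called (*Krt5*, *Mki67*, *Kit* and *Top2a*), and the summed level was 37302 and 37282 in the young adult pools and 30602 and 29975 in the aged pools. Of all genes tested, 1.65% were called higher and 2.33% lower. The part of these cells in the receptors' values was not tested.

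Markers of other cell types of the mucosa had the following values beside those of the receptors. Of 7 fibroblast markers, led by *Dcn*, all had lower values (median -1.24) and 5 were called (*Col1a1*, *Col1a2*, *Col3a1*, *Lum* and *Dpt*), with a summed level of 248500 and 223800 in the young adult pools and 124540 and 116550 in the aged pools. Of 8 sustentacular markers, led by *Cyp2a5*, 1 was called higher (*Cyp1a2*, 0.54), with summed levels of 1063800 and 1068900 in the young adult pools and 1101800 and 1102900 in the aged pools. Of 9 ciliated respiratory markers measured, led by *Dynlrb2*, 0 were called and 8 had lower values, with summed levels of 63690 and 64251 in the young adult pools and 57333 and 57878 in the aged pools. Of 11 vomeronasal markers measured, 8 had higher and 3 lower values, among the latter the leading marker *Gnai2* (-0.34, FDR = 0.291). Of the 11, 2 were called higher (*H2-M10.3*, 1.73, and *H2-M10.6*, 1.26). The summed levels were 9347 and 8878 in the young adult pools and 10046 and 10158 in the aged pools. *H2-M10.1*, *H2-M10.4* and *H2-M10.5* had no array well above background. The shares of all genes called, 1.65% higher and 2.33% lower, stand beside these counts too. The part of these cell types in the receptors' values was not tested either.

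**Figure D4:**
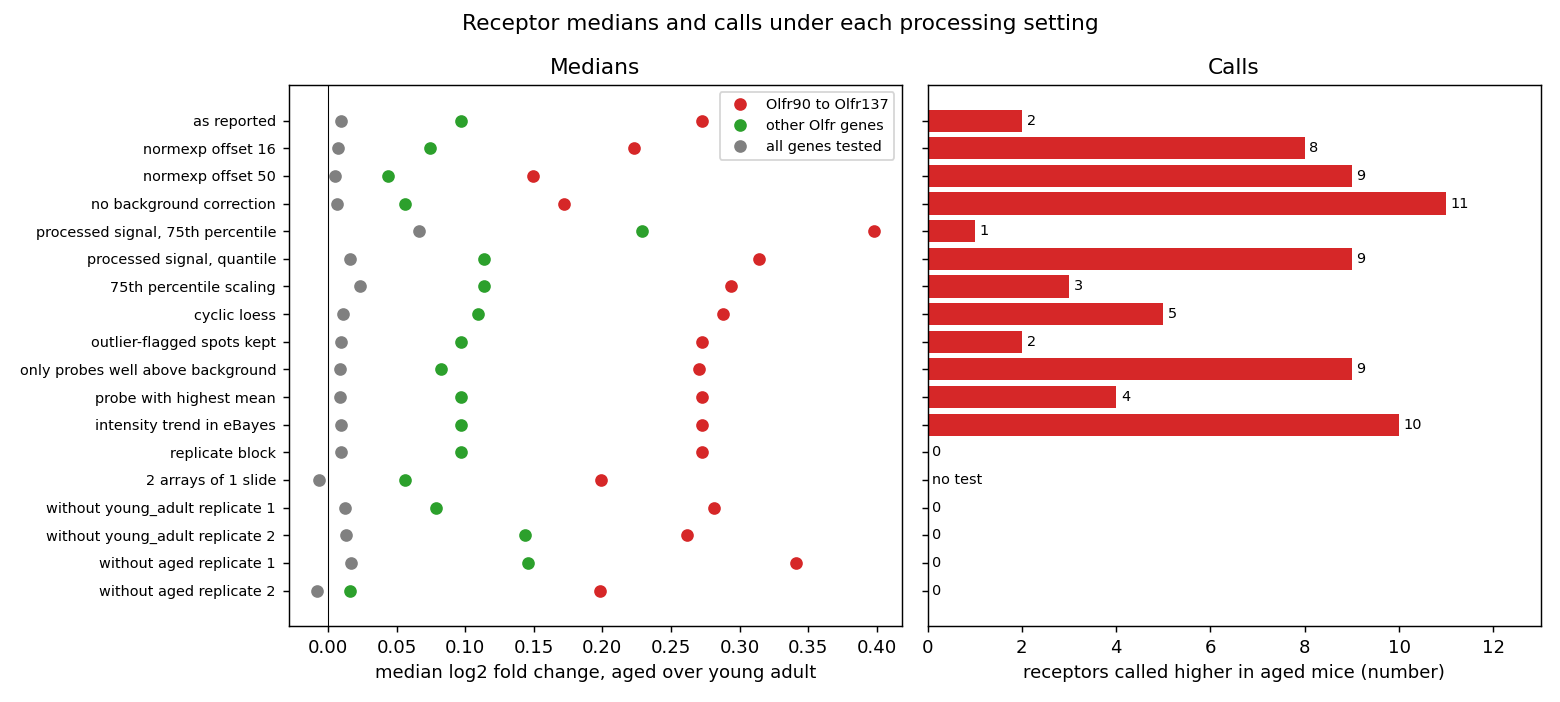
Median log2 fold change of the receptors, the other *Olfr* genes and all genes (left) and number of receptors called higher in aged mice (right, bars from 0) under each processing setting. The receptor median lies between 0.15 and 0.40 and the count between 0 and 11.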

How the data were processed

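RNA of nasal mucosa was hybridized to 4 Agilent arrays with a single dye. The authors deposited, per the file headers from Feature Extraction 11.0.1.1, each spot's median intensity, local background intensity and processed intensity, not normalized between arrays. The series' value table repeats the processed intensity (0 spots differed). A label description naming another tissue and a treatment was not used.

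In limma 3.58.1 (R 4.3.3), the median intensity was corrected by normexp with an offset of 0, control and outlier-flagged spots were dropped, spots of a probe averaged, arrays quantile normalized and probes of a gene averaged as log2 values. Of 56605 probes, 32994 matched a RefSeq accession. 12 genes without a value on some array were left out (a rule set with an earlier gene count known), none of them an *Olfr* gene. Ages were compared with lmFit and eBayes without covariates, after tests on simulated data. The number of arrays limits the precision.

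The members and lists were chosen with earlier results of these data known. Named were receptors called with a mean of at least 100 and 1.5-fold, with their chromosome neighbours, the 5 with the highest mean signal, the 3 largest rises and falls that separate by age and are above background, *Olfr124*, and the called or brightest members of other lists. Alternatives changed the background, signal, scaling, filter, eBayes, blocking and arrays. Protein sequences were not used here.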

Additional observations from a re-analysis of the deposited data

How the results depend on the processing

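The median log2 fold change of the receptors and its excess over that of the other *Olfr* genes kept their direction under every alternative run, while the counts of calls did not keep their size. Against 2 receptors called higher (beside 1.65% of all genes), there were 8 with a normexp offset of 16 (2.85%), 9 with an offset of 50 (4.62%), 11 without background correction (3.92%), 1 with the processed signal scaled to the 75th percentile (1.41%), 9 with the processed signal quantile normalized (4.45%), 5 with cyclic loess (2.09%), 9 of 21 receptors with only the probes well above background (11.7%), 4 with the probe of highest mean per gene (2.20%) and 10 with an intensity trend in eBayes (7.92%). One receptor was called lower with only the probes well above background (1 of 21, *Olfr134*), beside 12.6% of all genes and 19.3% of the other *Olfr* genes. The 21 receptors of this setting outnumber the 18 detected on every array, so it kept some that were dim on an array. *Olfr134* was one of these, detected on 2 young adult arrays but on 1 aged array. Its detection was thus fuller in the age with the higher level, and its lower call is not independent of the filter. The count with a mean of at least 100 and 1.5-fold was 2 with an offset of 16, 2 with an offset of 50, 2 without background correction, 3 with the processed signal quantile normalized, 2 with only the probes well above background and 2 with the intensity trend. In each of these settings a larger share of all genes was called as well, as given above. Leaving out 1 array in turn gave 0 to 0 receptors in both counts, and 0 genes called of all tested. *Olfr131* was called in the other settings that keep 4 arrays and have a test, except with the block. The cause was not tested.

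With the replicate number as a block, 0 receptors were called higher and 0 with a mean of at least 100 and 1.5-fold, and no gene of the whole array was called. The arrays numbered 1 share a slide and those numbered 2 do not. Over all genes the differences between the arrays of an age had a correlation of -0.0779 between the ages, and no pairing was used in the main fit.

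The median of the receptors, 0.27, was 0.15 with an offset of 50, 0.17 without background correction, 0.40 with the processed signal scaled to the 75th percentile and 0.20 on the 2 arrays of one slide, and 0.20 to 0.34 with 1 array left out. Its excess over the other *Olfr* genes, 0.18, was 0.15 with an offset of 16, 0.11 with an offset of 50, 0.12 without background correction, 0.20 with the processed signal quantile normalized and 0.14 on the 2 arrays of one slide, and 0.12 to 0.20 with 1 array left out. The median of the other *Olfr* genes, 0.10, was 0.02 to 0.15 with 1 array left out. Over the settings the calls higher ran from 0 to 12 in the signalling and export list and 0 to 7 in mature neurons, and the calls lower from 0 to 5 in immature neurons and 0 to 6 in basal cells and fibroblasts each. The named receptors kept their sign in every setting in which they were fitted, except *Olfr124*, which ran from -0.79 to 0.11. *Olfr130* and *Olfr132* were not fitted with only the probes well above background. Keeping the 12 genes with a missing array, chosen after seeing the data, changed none of the 3 counts. The slide as a random block could not be fitted with 4 arrays, the choice of receptors by a gene name column was not run because no such column was used here, and the 2 arrays of one slide give no test. Signal over background limits the dim receptors.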
